A study of Mus musculus with 8 samples.

Results

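*Tat*, *Tdo2*, *Hal*, *Hpd*, *Sds*, *Got1*, *Prodh*, *Kmo* and *Hgd* encode enzymes of amino acid breakdown. These 9 genes were chosen by name among the 23282 rows of the count files, each was found on 1 row, and all 9 were among the 12701 rows that passed the filter on low counts. Liver RNA of C57BL/6 mice, which the labels call males of 4 weeks, was sequenced from the 3′ ends of transcripts in 8 libraries of 3 groups. The control group received saline, and the endotoxemic group received 25 mg/kg LPS (lipopolysaccharide, the endotoxin of gram-negative bacteria) by intraperitoneal injection. The labels of the LGK974 group name only the agent LGK974, and the study's text gives 60 mg/kg LGK974 together with 25 mg/kg LPS. The study's methods state collection of livers 6 h after LPS and, for most experiments, injection of LGK974 2 h before LPS. LGK974 inhibits Porcupine, the acyltransferase that Wnt ligands need for secretion. The sources used here do not say whether each library came from 1 mouse or from pooled mice, so the p-values measure the spread between these libraries.

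The liver is the main site at which amino acids are broken down, and it sends their nitrogen to urea and their carbon to glucose or to acetyl-CoA. In tyrosine breakdown, tyrosine aminotransferase (*Tat*), 4-hydroxyphenylpyruvate dioxygenase (*Hpd*) and homogentisate 1,2-dioxygenase (*Hgd*) act one after another. Tryptophan 2,3-dioxygenase (*Tdo2*) opens the kynurenine pathway, in which kynurenine 3-monooxygenase (*Kmo*) acts later. Histidine ammonia lyase (*Hal*) and proline dehydrogenase (*Prodh*) catalyse the first steps for histidine and proline, serine dehydratase (*Sds*) turns serine into pyruvate, and the cytosolic aspartate aminotransferase (*Got1*) moves amino groups between aspartate and glutamate. *Tat* and *Tdo2* are textbook genes of the hepatic glucocorticoid response, and *Hal* and *Sds* are markers of periportal hepatocytes.

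Several features of the libraries bear on every comparison. Endotoxemic library 3 was identical to library 1, and library 4 to library 2, row by row, and each such pair was counted once, which left 6 distinct libraries, 2 per group, with totals of 9142116 to 15222439 counts. A floor of 3 counts equalled 0.197 to 0.328 CPM (counts scaled to a common library size) and covers counting error only. The female transcript *Xist* had 1171 to 3115 counts in the control and endotoxemic libraries and 3 and 7 in LGK974 livers. By contrast, the Y-linked *Ddx3y* had 0 counts in the control and endotoxemic libraries and 1755 and 1392 in LGK974 livers. The control and endotoxemic libraries therefore go against the label male, and this difference and LGK974 treatment cannot be told apart in either comparison of the LGK974 group. Of 10 hepatocyte markers, 9 had a row and all 9 were counted in every library, whereas 6 kidney tubule markers summed to 0 to 9 counts per library.

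The rows of the files follow the genome, and 581 of the 23146 rows with a RefSeq position were out of that order, so that the symbol and the counts of such a row may not belong together. The rows of all 9 enzymes were in order. For 8 of them the ordered rows on both sides were genomic neighbours, at 7.3 to 112.6 kb. The row before *Tat* belongs to *Marveld3*, 38.2 kb away, but the row after it carries *Casp4*, a gene of chromosome 9, whereas *Tat* lies on chromosome 8. That next row had 4 and 13 counts in control livers and 0 in the others. The symbol of *Tat* is therefore flanked by a true neighbour on one side only.

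In the GENCODE annotation of GRCm38, *Hpd* (chr5:123171807-123182727, minus strand) lies within *Psmd9* on the opposite strand and shares its strand with the long noncoding gene *Gm26745*. The 3′ end of *Sds* (chr5:120476526-120483932, plus strand) overlaps *Plbd2*, and that of *Prodh* (chr16:18060357-18090203, minus strand) overlaps *Dgcr6*, both on the opposite strand. In RefSeq's spans on the same build, *Sds* and *Plbd2* share 40 bases, while *Hpd* and *Prodh* do not overlap *Psmd9* and *Dgcr6*. The sources used here do not state whether counting used the strand, so where the annotation counted on held an overlap, reads of these partners could have been counted on either gene. In edgeR's test of the endotoxemic group against the control group, *Dgcr6* was lower by a log2 fold change of −2.30 (SE 0.29, adjusted p = 0.000251), and *Plbd2* (−0.82, adjusted p = 0.0644) and *Psmd9* (−0.97, adjusted p = 0.112) did not pass. The other members lie at chr8:109990437-109999803 (*Tat*, plus strand), chr3:81957090-81976202 (*Tdo2*, minus strand), chr10:93488768-93519304 (*Hal*, plus strand), chr19:43499752-43524605 (*Got1*, minus strand), chr1:175620381-175662116 (*Kmo*, plus strand) and chr16:37580153-37632020 (*Hgd*, plus strand). Of these, *Kmo* overlaps the coding gene *Fh1* and *Hgd* the antisense gene *Gm46559* in GENCODE, both on the opposite strand and away from the 3′ end. The antisense gene *Gm15690* likewise lies within *Sds*. The bearing of these overlaps on the counts was not tested.

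RefSeq promoters of GRCm38.p6 were matched to 8 of the 9 genes, and *Sds* is named only. The 250 bases before the start of *Hal*, *Hgd* and *Prodh*, the genes with the 3 largest falls described below, are shown with those of *Tat*, whose fitted change was the smallest of the 9 between the LGK974 and control groups. Capitals mark matches to TATAAA, the core of the TATA box, or TTGCNNAA, a C/EBP element, searched on both strands. The RefSeq start used for *Prodh* lies inside its longer GENCODE span.
Hal, chr10:93488518-93488767, plus strand: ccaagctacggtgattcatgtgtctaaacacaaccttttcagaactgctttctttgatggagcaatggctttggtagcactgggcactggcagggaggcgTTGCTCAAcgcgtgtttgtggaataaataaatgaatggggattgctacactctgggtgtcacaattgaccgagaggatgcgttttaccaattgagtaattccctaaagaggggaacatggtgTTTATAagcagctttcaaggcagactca
Hgd, chr16:37579903-37580152, plus strand: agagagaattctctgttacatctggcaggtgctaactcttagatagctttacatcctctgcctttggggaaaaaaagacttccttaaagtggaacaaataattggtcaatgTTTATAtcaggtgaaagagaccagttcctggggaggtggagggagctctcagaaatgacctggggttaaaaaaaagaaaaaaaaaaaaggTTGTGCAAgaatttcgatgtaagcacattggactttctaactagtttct
Prodh, chr16:18089191-18089440, minus strand: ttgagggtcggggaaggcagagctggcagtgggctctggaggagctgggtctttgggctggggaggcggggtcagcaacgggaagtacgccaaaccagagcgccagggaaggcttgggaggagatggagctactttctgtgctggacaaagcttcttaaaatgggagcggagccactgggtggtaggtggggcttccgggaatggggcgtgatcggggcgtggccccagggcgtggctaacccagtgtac
Tat, chr8:109990186-109990435, plus strand: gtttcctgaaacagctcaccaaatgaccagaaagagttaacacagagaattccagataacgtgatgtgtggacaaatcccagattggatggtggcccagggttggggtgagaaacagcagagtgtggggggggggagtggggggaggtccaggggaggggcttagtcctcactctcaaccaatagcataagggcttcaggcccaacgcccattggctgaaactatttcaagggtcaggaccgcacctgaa

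The C/EBP letters occurred in 2 of the 8 promoters, *Hal* (−150 to −143) and *Hgd* (−49 to −42), and in 9.55% of 27025 promoters of the same length. TATAAA occurred in 3 of the 8, among them *Hal* at −28 to −23 and *Hgd* at −139 to −134, both on the reverse strand, and in 13% of all promoters. The letters TGTTCT of the glucocorticoid receptor half-site occurred in 0 of the 8 and in 16.2% of all promoters. With 8 windows and that share, no lack of the letters is read from this count, and bases farther from the starts were not searched. The elements searched for HNF4 (CAAAGTCCA, 0.381% of all promoters) and FOXA (TGTTTAC, 3.09%) were likewise not among the letters of these windows. A match is a description of the letters, and the overlap of a match with other motifs was not examined.

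**Figure D1:**
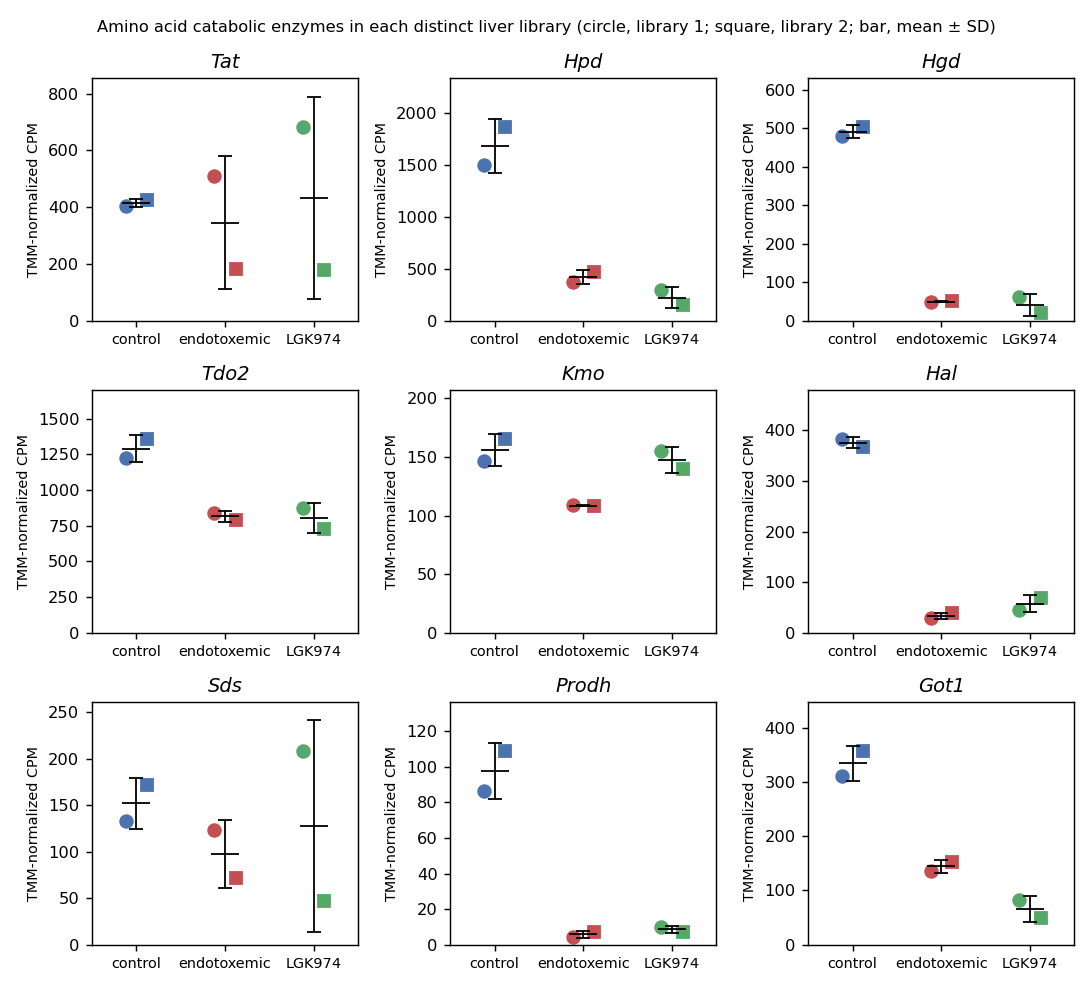
Levels of the 9 enzymes, in TMM-normalized CPM on linear axes from 0, in the 2 distinct libraries of each group (circle and square), with bars for the mean ± SD. *Hal*, *Hgd*, *Prodh*, *Hpd* and *Got1* lie lower in both libraries of the endotoxemic and LGK974 groups than in the control group. The points of *Tat* and *Sds* lie far apart within the endotoxemic and LGK974 groups. On the log2 scale the libraries of *Hgd* in the LGK974 group and of *Prodh* in the endotoxemic group also differ widely.

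The first comparison, endotoxemic against control, asked how LPS-induced endotoxemia altered these enzymes. In edgeR's quasi-likelihood test, 7 of the 9 members fell and 0 rose, where 23.0% of the 12701 rows tested were lower and 20.4% higher. The same 0 and 7 were found at an unadjusted p under 0.05 (24.5% of rows higher and 26.8% lower), and DESeq2 also gave 0 and 7 (21.1% and 22.6%). Without endotoxemic library 1, 4 of the 9 passed, all lower (13.5% of rows lower and 13.0% higher), and the calls of *Tdo2*, *Kmo* and *Got1* were lost. The median log2 fold change of the 9 was −1.21, against 0.01 over all rows. The groups did not overlap for 8 of the 9, all lower, compared with 39.2% of the rows, and none lay higher, compared with 37.9%. In bulk liver, fewer cells of a type and less RNA per cell cannot be told apart.

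The largest fall was that of *Prodh*, the mitochondrial enzyme that oxidizes proline. *Prodh* had 86.2 and 109 CPM in control livers, 4.25 and 7.36 CPM in endotoxemic livers, and 10.2 and 7.38 CPM in LGK974 livers. Both LPS-injected groups lay far under the control group, by a log2 fold change of −4.07 (SE 0.32, adjusted p = 1.78e-05) in the endotoxemic group, a 16.8-fold fall. *Dgcr6*, which overlaps its 3′ end in the GENCODE span and not in the RefSeq span, fell in the same comparison as given above, and the part of shared reads in this value was not tested.

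*Hal* and *Hgd* fell by a similar size. *Hal*, which starts histidine breakdown, had 383 and 367 CPM in control livers, 29.2 and 38.2 CPM in endotoxemic livers, and 46.0 and 69.3 CPM in LGK974 livers. The 3 groups of *Hal* did not overlap, and its log2 fold change in the endotoxemic group was −3.48 (SE 0.26, adjusted p = 1.48e-05). *Hgd*, which opens the ring of homogentisate, had 480 and 504 CPM in control livers, 49.0 and 50.2 CPM in endotoxemic livers, and 61.1 and 20.0 CPM in LGK974 livers. Its 2 endotoxemic libraries were close to each other and its 2 LGK974 libraries lay on either side of them. The fall of *Hgd* in the endotoxemic group was −3.31 on the log2 scale (SE 0.44, adjusted p = 0.000357).

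*Hpd*, the dioxygenase before *Hgd* in the tyrosine pathway, had 1498 and 1863 CPM in control livers, 370 and 464 CPM in endotoxemic livers, and 293 and 151 CPM in LGK974 livers. The groups formed 3 steps without overlap, and the log2 fold change in the endotoxemic group was −2.01 (SE 0.31, adjusted p = 0.000891). *Got1* showed the same order, with 311 and 357 CPM in control livers, 136 and 153 CPM in endotoxemic livers, and 82.6 and 49.7 CPM in LGK974 livers. *Got1* fell in the endotoxemic group by −1.21 on the log2 scale (SE 0.25, adjusted p = 0.00457). Without endotoxemic library 1, that call was lost (adjusted p = 0.057).

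Among the members that passed, *Tdo2* and *Kmo* of the kynurenine pathway moved least. Other genes of that pathway fell by more in the endotoxemic group, such as *Kynu* (log2 fold change −2.99), *Afmid* (−2.93) and *Haao* (−1.47). *Ido1* was called higher on a row out of order. *Tdo2*, the first enzyme of the pathway, had 1223 and 1359 CPM in control livers, 842 and 790 CPM in endotoxemic livers, and 877 and 729 CPM in LGK974 livers. Both LPS-injected groups overlapped each other and lay under the control group. The log2 fold change of *Tdo2* in the endotoxemic group was −0.66 (SE 0.19, adjusted p = 0.0208), and the call was lost when any 1 of the control or endotoxemic libraries was left out (adjusted p = 0.0787 to 0.143). *Kmo*, which hydroxylates kynurenine, had 146 and 166 CPM in control livers, 109 and 108 CPM in endotoxemic livers, and 155 and 140 CPM in LGK974 livers. The LGK974 libraries of *Kmo* overlapped those of the control group and both lay above the endotoxemic ones. *Kmo* passed narrowly in the endotoxemic group (log2 fold change −0.52, SE 0.18, adjusted p = 0.0448) and failed under 9 of 17 alternatives (adjusted p = 0.00169 to 0.252 over the 17).

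*Tat* and *Sds* did not pass. *Tat*, the first enzyme of tyrosine breakdown, had 406 and 425 CPM in control livers, 511 and 181 CPM in endotoxemic livers, and 683 and 179 CPM in LGK974 livers. In each LPS-injected group, library 1 lay above and library 2 below both control libraries. The log2 fold change of *Tat* in the endotoxemic group was −0.26, with a 95% interval of −1.58 to 1.05 (adjusted p = 0.742), and it was 0.30 without endotoxemic library 2. *Sds*, which makes pyruvate from serine, had 133 and 172 CPM in control livers, 124 and 72.1 CPM in endotoxemic livers, and 208 and 47.4 CPM in LGK974 livers. Its endotoxemic libraries lay under the control libraries without overlap, but its log2 fold change of −0.64 had an interval of −1.88 to 0.61 (adjusted p = 0.379). It was at −1.02 without endotoxemic library 1 and at −0.30 without endotoxemic library 2. It passed without either LGK974 library, without the filter, and in a fit of these 2 groups alone (adjusted p = 0.0284 to 0.0444).

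**Figure D2:**
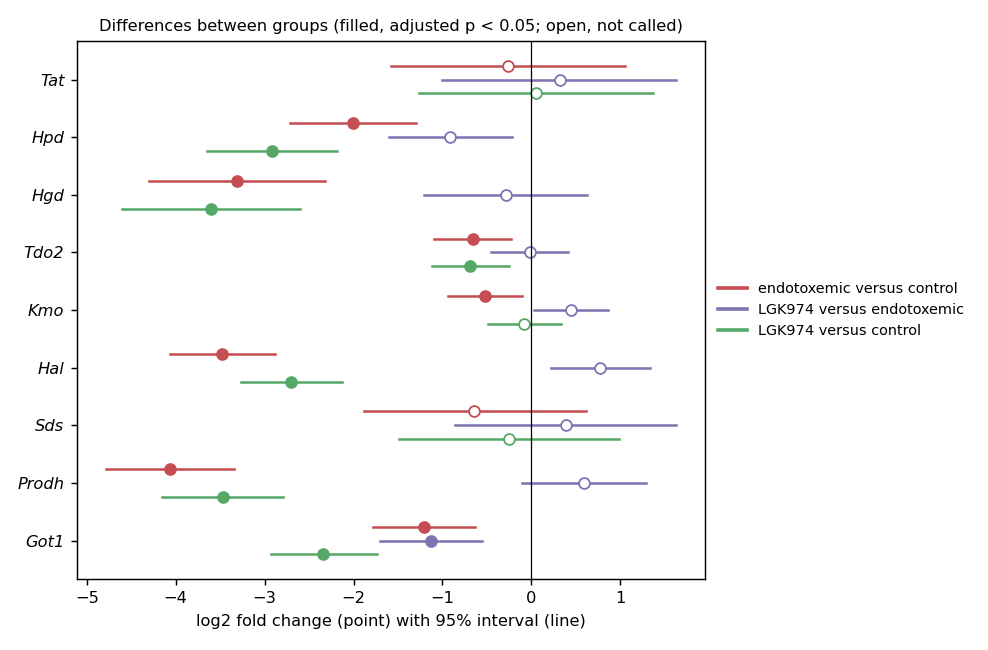
Log2 fold change of each enzyme in the 3 comparisons, with the 95% interval of edgeR's fit, where filled points passed an adjusted p of 0.05 and open points did not. In the endotoxemic group against the control group the points run from −4.07 (*Prodh*) to −0.26 (*Tat*), and in the LGK974 group against the endotoxemic group the filled point is *Got1* at −1.13.

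The second comparison, LGK974 against endotoxemic, asked what LGK974 changed in endotoxemia. One member, *Got1*, passed, and it was lower, where 2.82% of the rows tested were lower and 2.80% higher. *Got1* had a log2 fold change of −1.13 (SE 0.25, adjusted p = 0.0374), a further fall from the endotoxemic level. This call was lost without any 1 of the control or endotoxemic libraries and in a fit of these 2 groups alone (adjusted p = 0.0823 to 0.234). No member rose in edgeR's test, while 2 members were higher and 2 lower at an unadjusted p under 0.05, compared with 11.9% and 11.0% of the rows. DESeq2 called 0 higher and 2 lower, compared with 5.16% and 5.35%. Without LGK974 library 1, edgeR called 4 members lower and 1 higher, compared with 8.16% and 8.98%. The groups of 5 members did not overlap, 3 higher and 2 lower, compared with 26.5% and 26.0% of the rows.

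For the other 8 members the intervals show what this design could not separate. *Hal* was 0.77 higher on the log2 scale (95% interval 0.22 to 1.33, adjusted p = 0.0998) and *Kmo* 0.44 higher (0.03 to 0.86, adjusted p = 0.191). *Hpd* was lower, at −0.91 (−1.60 to −0.22, adjusted p = 0.115). These 3 values had the same direction in all 17 alternatives and passed in 3, 1 and 4 of them, respectively. Over those alternatives *Hal* ran from 0.45 to 1.04 and *Hpd* from −1.46 to −0.51, and both extremes of each came from leaving out an LGK974 library. The difference of *Tdo2* was −0.02 with an interval of −0.45 to 0.41, and those of *Prodh* (0.59, −0.11 to 1.29) and *Hgd* (−0.29, −1.21 to 0.63) also included 0. *Prodh* was at 0.23 without endotoxemic library 1 and at 1.04 without endotoxemic library 2. *Tat* (0.32, −1.00 to 1.63) and *Sds* (0.39, −0.86 to 1.63) had the widest intervals. *Hgd* passed without LGK974 library 1 (−1.31, adjusted p = 0.000449) and was at 0.30 without LGK974 library 2. *Sds* turned with the LGK974 library that was kept, from −1.04 (adjusted p = 0.0238) without library 1 to 1.09 (adjusted p = 0.0199) without library 2.

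Against the control group, 6 members fell in the LGK974 group and 0 rose, where 17.7% of the rows were lower and 16.4% higher. The counts at an unadjusted p under 0.05 (22.6% of rows lower and 22.1% higher) and by DESeq2 (17.9% and 17.1%) were also 6 and 0. The groups of these 6 lay lower without overlap, compared with 34.3% of the rows, and none lay higher without overlap, compared with 33.8%. The endotoxemic and LGK974 comparisons with the control group share the control libraries. *Hgd* (log2 fold change −3.60, SE 0.44, adjusted p = 0.000312) and *Prodh* (−3.47, SE 0.30, adjusted p = 4.05e-05) had the largest falls. *Hgd* was at −4.61 without LGK974 library 1 and at −3.00 without LGK974 library 2, which changes its place in this order. *Hpd* (−2.92, SE 0.32, adjusted p = 0.000169), *Hal* (−2.70, SE 0.25, adjusted p = 6.26e-05) and *Got1* (−2.34, SE 0.26, adjusted p = 0.000181) followed. *Tdo2* was lower by −0.69 (SE 0.19, adjusted p = 0.0223) and lost that call in 5 of the 17 alternatives.

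*Kmo*, *Tat* and *Sds* did not pass in this comparison. The difference of *Kmo* was −0.08 with an interval of −0.49 to 0.33, which excludes a fall of the size that *Hal*, *Hgd* or *Prodh* had. The differences of *Tat* (0.05, −1.26 to 1.37) and *Sds* (−0.25, −1.49 to 0.99) rested on libraries far apart. *Tat* was at −1.21 without LGK974 library 1 and reached 0.72 at the other end of the 17 alternatives. *Sds* was at −1.68 without LGK974 library 1 and at 0.46 without LGK974 library 2.

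The spread between the 2 libraries of a group differed among the enzymes. Over rows with at least 10 CPM, the median difference between the libraries was 0.18 on the log2 scale in the control group, 0.19 after LPS and 0.30 in the LGK974 group. *Tat* differed by 0.07 between the control libraries, 1.5 between the endotoxemic libraries and 1.93 between the LGK974 libraries. *Sds* differed by 0.37, 0.78 and 2.14. Library 1 was the higher one for both genes in both LPS-injected groups, and a larger difference was found on 0.124% (*Tat*) and 2.05% (*Sds*) of the endotoxemic rows and on 0.621% and 0.398% of the LGK974 rows. *Prodh*, at levels under 10 CPM, differed by 0.79 between the endotoxemic libraries, with library 2 the higher one. A larger difference was found on 2% of the endotoxemic rows. The ratio of *Tat* to *Sds* counts stayed between 2.48 and 4.13 over the 6 libraries.

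*Hgd* differed by 1.61 between the LGK974 libraries, larger than on all but 1.24% of the rows, and by 0.07 and 0.04 in the control and endotoxemic groups. The other members of the LGK974 group differed by 0.15 (*Kmo*) to 0.95 (*Hpd*), library 1 being the higher one except for *Hal*. Replicates have no order, and no label separates library 1 from library 2. The ribosomal RNA row *Rn45s* held 4.8% of the counts of LGK974 library 1 and 9.38% of those of LGK974 library 2. Its share was 7.17% to 8.26% in the control and endotoxemic libraries. The bearing of this share on the differences between libraries was not tested.

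**Figure D3:**
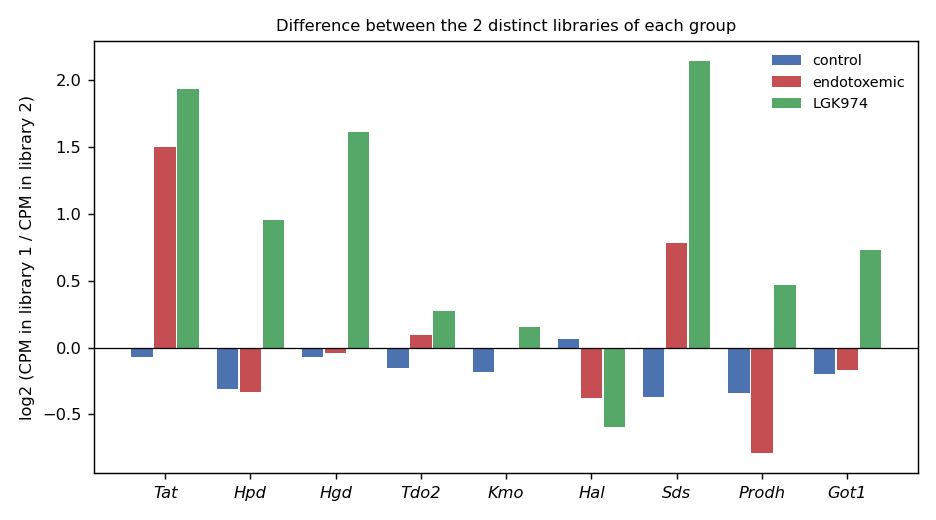
Difference between libraries 1 and 2 of each group on the log2 scale for the 9 enzymes, where a bar above 0 means a higher CPM in library 1. *Tat* and *Sds* reach 1.93 and 2.14 in the LGK974 group, whereas the values of the control group lie between −0.37 and 0.06.

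Each member was set beside the gene of the amino acid breakdown lists whose log2 level was most like its own over the 6 libraries, by Pearson's r. These libraries share groups, and 70 genes were compared for each member, so the values are a description. *Tat* and *Sds* were each other's most alike gene (r = 0.929). *Hpd* was most like *Fah*, the last enzyme of tyrosine breakdown (r = 0.998), and *Hgd* was most like *Haao* of the kynurenine pathway (r = 0.998). *Tdo2* paired with *Pcca* (r = 0.993), *Prodh* with *Pcbd1* (r = 0.993), *Hal* with *Hibch* (r = 0.992) and *Got1* with *Hpd* (r = 0.983), whereas the best match of *Kmo*, *Hoga1*, reached 0.913.

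The other genes of amino acid breakdown were read from lists of 69 further symbols, of which 66 had a row and 62 were tested. In the endotoxemic group 54 of the 62 fell, 2 were called higher and 6 did not pass, with a median log2 fold change of −1.70, where 23.0% of all rows were lower and 20.4% higher. Per pathway, members included, 7 of 8 genes of phenylalanine and tyrosine, 11 of 12 of tryptophan, 4 of 4 of histidine and 5 of 5 of proline, ornithine and hydroxyproline breakdown fell. The same held for 18 of 20 genes of the branched-chain amino acids, 5 of 6 of glutamate, aspartate and alanine, 9 of 13 of serine, threonine and glycine, and 2 of 3 of lysine. The 2 genes called higher were *Sdsl* and *Ido1*. The row of *Ido1*, a second tryptophan-cleaving dioxygenase, was out of genomic order, with 0 counts in both control libraries and 6253 to 19886 in the others, and no direction is read from it.

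The largest falls among these other genes were those of *Shmt1*, the cytosolic serine hydroxymethyltransferase (log2 fold change −3.76, SE 0.24, adjusted p = 5.08e-06), *Amdhd1*, which acts after *Hal* in histidine breakdown (−3.24, SE 0.32, adjusted p = 5.7e-05), and *Ido2* (−3.18, SE 0.42, adjusted p = 0.000351). The row of *Ido2* was in order, but the next row carries *Sele* of chromosome 1 and was not. *Sdsl*, a paralog of *Sds*, rose by 3.02 (SE 0.24, adjusted p = 1.84e-05), with 5.38 and 6.80 CPM in control livers and 45.4 and 54.2 CPM in endotoxemic livers. It had 71.3 and 59.9 CPM in LGK974 livers, so that both LPS-injected groups lay above the control group. The ratio of *Sds* to *Sdsl* counts was 24.6 and 25.2 in control livers, 2.72 and 1.33 in endotoxemic livers and 2.92 and 0.791 in LGK974 livers.

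In the LGK974 group against the endotoxemic group, 5 of the 62 rose and 0 fell in edgeR's test, where 2.80% of all rows were higher and 2.82% lower, with a median of 0.05. At an unadjusted p under 0.05, 10 were higher and 3 lower (11.9% and 11.0% of rows), and DESeq2 called 5 and 1 (5.16% and 5.35%). The 1 lower by DESeq2 was *Oat* of ornithine breakdown (−0.93, adjusted p = 0.00528). In edgeR's test with RLE factors *Oat* also passed as lower (−0.93, adjusted p = 0.0466), so the count of 0 that fell rests on a narrow margin. *Ccbl1*, a kynurenine aminotransferase, rose by 2.02 on the log2 scale (SE 0.26, adjusted p = 0.00514), from 23.2 and 18.3 CPM in endotoxemic livers to 71.2 and 97.4 CPM. *Ftcd* of histidine breakdown (1.09, SE 0.21, adjusted p = 0.0212) and *Gcsh* of the glycine cleavage system (1.08, SE 0.20, adjusted p = 0.0198) rose next. *Bckdha* of branched-chain amino acid breakdown was also among the 5 (1.00, adjusted p = 0.0358). The count of 5 became 0 or 1 without any 1 of the control or endotoxemic libraries and 8 without either LGK974 library, and without LGK974 library 1, 9 of the 62 were called lower (8.16% of rows). Compared with the control group, 53 of the 62 were lower and 2 higher (*Sdsl* and *Ido1*), with a median of −1.49, where 17.7% of all rows were lower and 16.4% higher. *Sdsl* was at 3.42 (SE 0.24, adjusted p = 1.12e-05), *Shmt1* at −3.61 (adjusted p = 6.36e-06), *Oat*, the ornithine aminotransferase, at −3.52 (adjusted p = 1.12e-05) and *Afmid* of the kynurenine pathway at −3.34 (adjusted p = 9.82e-05).

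**Figure D4:**
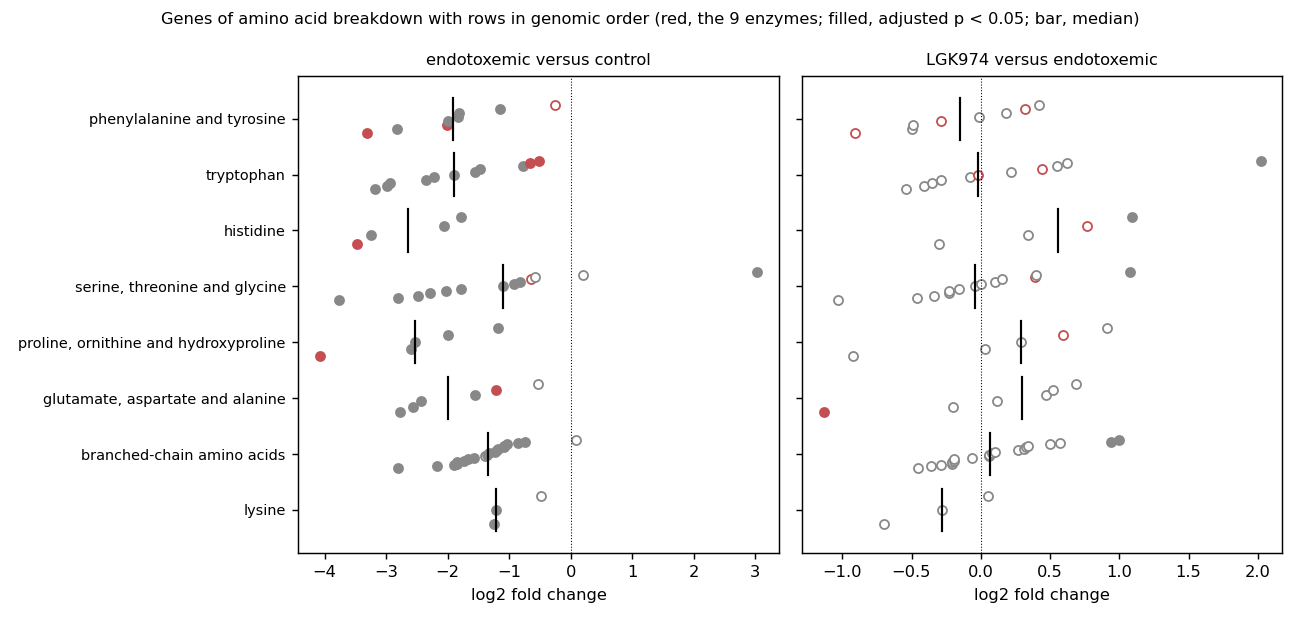
Log2 fold change of each tested gene of the amino acid breakdown lists with a row in genomic order, by pathway, for endotoxemic against control (left) and LGK974 against endotoxemic (right), with the 9 enzymes in red, filled points past an adjusted p of 0.05 and bars at the medians. On the left most genes of every pathway lie below 0, whereas on the right the medians of the pathways lie between −0.28 and 0.56.

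*Got1* and *Prodh* each have a second enzyme with a related activity, *Got2* in mitochondria and *Prodh2* for hydroxyproline, which were chosen after their values had been seen. *Got2* had 416 and 425 CPM in control livers, 145 and 142 CPM in endotoxemic livers and 211 and 200 CPM in LGK974 livers. It fell in the endotoxemic group (log2 fold change −1.55, adjusted p = 0.000151) and was 0.52 higher in the LGK974 group than there (adjusted p = 0.12). The ratio of *Got1* to *Got2* counts was 0.748 and 0.840 in control livers, 0.942 and 1.08 in endotoxemic livers and 0.392 and 0.249 in LGK974 livers, and the 3 groups did not overlap. *Prodh2* fell by less than *Prodh* (−2.00, adjusted p = 0.000241), and the ratio of *Prodh* to *Prodh2* counts was 0.795 and 1.15 in control livers and 0.146 to 0.342 in the other 4. The differences between these paired genes were not tested.

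Glucocorticoids induce *Tat* and *Tdo2* in liver, and a list of the glucocorticoid receptor and 6 genes it induces was read beside them. In the endotoxemic group the receptor *Nr3c1* fell (log2 fold change −1.21, SE 0.25, adjusted p = 0.0038), *Tsc22d3* fell (−2.70, SE 0.25, adjusted p = 4.61e-05) and *Fkbp5* rose (1.76, SE 0.23, adjusted p = 0.000358). The other 4, *Per1*, *Sgk1*, *Zbtb16* and *Dusp1*, did not pass. Of the 7 genes 2 were thus lower and 1 higher, where 23.0% of all rows were lower and 20.4% higher. No direction of the list is read from these counts. *Nr3c1* lost its call without endotoxemic library 1 (−0.91, adjusted p = 0.0574). Against the endotoxemic group, *Tsc22d3* was higher with LGK974 (1.58, SE 0.25, adjusted p = 0.0107), the only 1 of the 7 to pass there. In that comparison 2.80% of all rows were higher and 2.82% lower. *Tsc22d3* lost that call without either endotoxemic library (adjusted p = 0.0901 and 0.139).

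Markers of cell types were read beside the enzymes, for the endotoxemic against the control group and with sums over rows in genomic order. Of all rows tested in that comparison, 23.0% were lower and 20.4% higher, and 39.2% lay lower without overlap. The sums were also taken without the 1 marker that rose in a list, a choice made after the values had been seen. Of 9 hepatocyte markers 7 were lower, and *Fgb*, the fibrinogen beta chain and an acute-phase gene, rose. The 9 summed to 100600 to 136400 CPM in the control group, 76250 to 104300 CPM after LPS and 82680 to 83260 CPM in the LGK974 group. Without *Fgb* the sums were 92090 to 124700 CPM, 39060 to 55860 CPM and 41230 to 45110 CPM, and the control group no longer overlapped the others. Of 8 periportal markers in order, which include *Hal* and *Sds*, 7 were lower and 0 higher, with sums of 6610 to 7343 CPM, 1707 to 1742 CPM and 2875 to 2897 CPM. Of 9 pericentral markers 8 were lower and 0 higher, with sums of 6456 to 6615 CPM, 1190 to 1387 CPM and 929 to 1958 CPM. Both lists of hepatocyte zones were thus lower in the LPS-injected groups, without overlap.

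The lists of other cell types held markers that moved in opposite directions, where again 23.0% of all rows were lower and 20.4% higher. Of 5 Kupffer cell markers in order 3 were lower and *Marco*, a scavenger receptor, was higher (log2 fold change 3.70, adjusted p = 1.89e-05). The 5 summed to 127 to 132 CPM in the control group, 126 to 154 CPM after LPS and 98.0 to 126 CPM in the LGK974 group, and the 4 without *Marco* to 121 to 126 CPM, 51.6 to 57.7 CPM and 29.2 to 37.1 CPM. Of 6 sinusoidal endothelial markers 4 were lower and *Lyve1* was higher. The row before that of *Lyve1* carries *Snord53* of chromosome 17 and was out of order. The same held for the row before *Kdr*, one of the 4 lower markers, which carries *Tnfrsf21* of chromosome 17. *Lyve1* carried the sums, which were 248 to 253 CPM, 375 to 394 CPM and 431 to 540 CPM with it and 203 to 212 CPM, 33.9 to 39.2 CPM and 32.1 to 42.0 CPM without it. Of 5 stellate cell markers in order 3 were lower and *Dcn* was higher, with sums of 412 to 426 CPM, 526 to 567 CPM and 435 to 524 CPM with it and 68.5 to 73.3 CPM, 18.2 to 20.7 CPM and 15.2 to 16.4 CPM without it. All 4 neutrophil markers in order were higher, with sums of 1.76 to 2.16 CPM in the control group, 92.5 to 107 CPM after LPS and 64.5 to 69.9 CPM in the LGK974 group. The summed level of the 9 enzymes was 4666 and 5321 CPM in control livers, 2173 and 1865 CPM in endotoxemic livers and 2416 and 1393 CPM in LGK974 livers. The part of these cell types in the falls of the enzymes was not tested.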

How the data were processed

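Liver RNA was made into libraries with the Lexogen QuantSeq kit, which reads 3′ ends, so that a count does not grow with the length of a gene. For 8 libraries the authors deposited raw whole-number counts per gene symbol, on 23282 rows, with no normalization. The submitters' processing notes name Bowtie2, edgeR and mm10, and the strand setting of the counting is not given in the sources used here.

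Groups were taken from the labels. Files of a group that were identical throughout entered as 1 library. Counts were analysed with edgeR 4.0.16 in R 4.3.3: after filterByExpr (by group) and TMM factors, a quasi-likelihood model with the group alone was fitted to all 6 libraries. Each comparison was tested over 12701 rows with Benjamini-Hochberg adjustment at 0.05, and every adjusted p comes from that test unless stated otherwise. The SE was derived from the test, and CPM are TMM-normalized. Levels were compared between genes by Pearson's r of log2(CPM + 0.5). Row order was compared with RefSeq positions on GRCm38, where a row over 2 Mb from its ordered neighbours was called out of order. Rows of at least 10 CPM entered the comparison of libraries.

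The genes named beside the 9 enzymes are, per comparison, the 3 largest rises and 3 largest falls past the threshold, with groups that did not overlap and rows in order, of lists of amino acid breakdown genes, the best match of each enzyme, and the genes of the glucocorticoid list. *Bckdha* was named after its values had been seen, because it belongs to a count of 5, and 1 gene of that count is not reported here. The enzymes, the lists and the tests were chosen with earlier results of these data known. Counts of the endotoxemic and control groups were also simulated, with 12388 genes, of which 200 were changed. Of the genes changed by 1 on the log2 scale 14.8% were recovered, against 89.7% of those changed by 2, and 6.84% of the calls were false. These shares come from 1 random draw. In the data 20.4% of the rows tested were called higher and 23.0% lower, a far larger part than was changed in the simulation. The simulated shares are therefore not the sensitivity of the tests on the data. A change that did not pass is not shown to be absent. Alternatives were other filters, RLE and upper-quartile factors, DESeq2 1.42.0, a replicate block, each library left out, fits of 2 groups, identical libraries counted separately, out-of-order rows left out or reassigned, and the ribosomal RNA row *Rn45s* left out.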

Additional observations from a re-analysis of the deposited data

How the results depend on the processing

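Over 17 alternatives for each of 27 member results, the direction and the side of the threshold were kept in 134 of the values for the endotoxemic against the control group, in 132 for the LGK974 against the endotoxemic group and in 142 for the LGK974 against the control group. A call was lost in 14, 5 and 5 of them, gained with the sign kept in 4, 10 and 1, and the sign turned in 1, 6 and 5, among them 1 further gained call each in the last 2 comparisons (*Sds* and *Tat*, both without LGK974 replicate 1). With 2 distinct libraries per group, leaving one out left a lone library that was assumed to vary like the others. The lowest counts of a member were 39 and 69, for *Prodh* in the endotoxemic libraries, against a floor of 3. The causes of the changes below were not tested.

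The signs that turned did so mostly when 1 library was left out, over which the log2 fold changes had these ranges. In the endotoxemic against the control group, *Tat* ran from −1.14 to 0.30 (without endotoxemic replicate 1 and 2) and *Dusp1*, of the glucocorticoid list, from −0.09 to 0.42. In the LGK974 against the endotoxemic group, the range was −0.95 to 1.22 for *Tat*, −0.16 to 0.10 for *Tdo2*, −1.04 to 1.09 for *Sds*, −1.31 to 0.30 for *Hgd*, −0.21 to 0.74 for *Amdhd1*, −0.23 to 1.04 for *Ido2*, −1.02 to 0.02 for *Afmid*, −0.21 to 0.35 for *Nr3c1* and −0.42 to 0.10 for *Zbtb16*, of the same list. In the LGK974 against the control group, it was −1.21 to 0.72 for *Tat*, −1.68 to 0.46 for *Sds*, −0.17 to 0.02 for *Kmo* and −0.16 to 0.41 for *Zbtb16*. The extremes of *Sds*, *Hgd*, *Amdhd1*, *Ido2* and *Afmid* came from leaving out the LGK974 libraries. Upper-quartile factors, which moved the median of all rows to 0.08 and 0.11 in these 2 comparisons, turned *Tdo2* against the endotoxemic group (0.02) and *Kmo* against the control group (0.01), and the replicate block turned *Tat* against the control group (−0.31).

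Counts of calls moved as follows. The 7 members lower in the endotoxemic group became 4 to 8 when 1 library was left out. In the LGK974 against the endotoxemic group, members higher numbered 1 without the filter, 2 with identical libraries counted separately and 0 to 1 when 1 library was left out, and members lower numbered 2 without the filter, with DESeq2 or with identical libraries counted separately, 0 in a fit of 2 groups, and 0 to 4 when 1 library was left out. The other breakdown genes higher there numbered 8 without the filter, 12 with identical libraries counted separately, 1 in a fit of 2 groups and 0 to 8 when 1 library was left out. Those lower there numbered 2 without the filter or with identical libraries counted separately, 1 with at least 10 counts in every library, RLE factors, upper-quartile factors, DESeq2, out-of-order rows left out or reassigned symbols, and 0 to 9 when 1 library was left out. In both comparisons with the control group, 1 in place of 2 was higher with at least 10 counts in every library, with out-of-order rows left out or with reassigned symbols, since each of these leaves out *Ido1*.

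The labels give replicate numbers without saying what they stand for. The deviations of same-numbered libraries correlated by 0.18 between the control and endotoxemic groups, −0.013 between the control and LGK974 groups and 0.063 between the endotoxemic and LGK974 groups. With 2 libraries per group, each value rests on 1 difference per group. It cannot show whether same-numbered libraries share a batch or a pairing. With the replicate block, 7 members were lower in the endotoxemic group, 1 in the LGK974 against the endotoxemic group and 6 in the LGK974 against the control group, the same counts as without it.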
